A study of Mus musculus with 16 samples.

Results

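The genes described here encode enzymes that write or erase methyl groups on histones, apart from LSD1 itself, with subunits of one such enzyme complex and the related *Setd3*, and are called enzymes for short. They are 41 genes, listed by name from families of histone methyltransferases and Jumonji (JmjC) demethylases and matched by that name to the rows of the gene count tables. All 41 were found among the 24421 genes of each table, and all 41 passed the filter on low counts in every comparison, so none is missing from the counts given here. Grouped by the usual role of their families, they comprise 11 writers of H3K4, 7 writers of H3K9 and 4 subunits of Polycomb repressive complex PRC2. The others are 4 writers of H3K36 or H3K79, *Setd3*, 2 erasers of H3K4, 10 erasers of H3K9 or H3K36 and 2 erasers of H3K27. The activity of each protein was not examined. The question was whether any of them moves when LSD1 is lost from muscle.

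Both muscles of the study were sequenced as poly(A) RNA, the gastrocnemius (Gas), of mainly fast fibers, and the soleus (Sol), rich in slow fibers. For each muscle there were 3 libraries of WT and 5 of LSD1-mKO mice, which makes 16. The mice were C57BL/6 males aged 8 weeks with a floxed *Lsd1* gene, and LSD1-mKO mice also carried a CreERT2 transgene under the human *ACTA1* promoter, so that cells other than muscle fibers kept the gene. WT mice had the floxed gene without CreERT2. All mice, WT included, received tamoxifen (75 mg/kg, 20 mg/mL in corn oil) for 5 days and dexamethasone (Dex), a synthetic glucocorticoid that wastes fast muscle, at 1 mg/kg for 7 days, starting on the fourth tamoxifen day. No muscle without Dex enters a comparison.

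Histone methylation is set by opposing enzymes. SET-domain methyltransferases add methyl groups to particular lysines, and demethylases of the LSD and JmjC classes remove them. LSD1 takes the methyl groups from mono- and dimethylated H3K4, a mark of enhancers and promoters that the KMT2, SETD1, SETD7 and SMYD enzymes write and that the KDM5 enzymes erase in its trimethylated form. In striated muscle the SMYD proteins also act outside the nucleus, where SMYD1 and SMYD2 associate with the chaperone HSP90 and with sarcomere proteins.

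The libraries held from 10130415 to 24576377 reads in genes. Within the 41 enzymes the reads of a gene in one library ranged from 11 (*Suv39h2*) to 19938 (*Smyd1*), so that the low end is limited by counting error. Levels are given as CPM, the reads of a gene relative to all reads of its library after TMM scaling over the 16 libraries. The targeted gene followed the labels. *Kdm1a*, which encodes LSD1, lay at 37.2 to 48.2 CPM in Gas of WT mice against 12.0 to 17.7 CPM in LSD1-mKO mice. The Sol values were 33.4 to 34.9 CPM against 9.13 to 12.9 CPM. The muscles followed theirs as well, since *Myh7*, the slow myosin heavy chain, had from 147 to 214 CPM in WT Gas and from 6609.6 to 8909 CPM in WT Sol. WT Gas replicate 3, LSD1-mKO Gas replicate 5 and WT Sol replicate 2 had high ribosomal protein levels (mean log2 CPM 8.81, 8.07 and 7.43) beside the other libraries of their muscle (7.23 to 7.61 in Gas and 6.58 to 6.99 in Sol). They were also left out, a choice made after the data were seen. The titles give the libraries numbers but do not say that each is a separate mouse, so p-values measure the spread between these libraries, which may be technical in part. The study's description of the Sol comparison names fewer LSD1-mKO mice than there are LSD1-mKO Sol libraries, and p-values would be too small if libraries shared a mouse.

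No enzyme passed the test for an effect of LSD1 loss in either muscle. In Gas, edgeR's quasi-likelihood test called 0 of the 41 at an adjusted p under 0.05, where it called 0.0307% of the 13040 genes tested, and the lowest adjusted p of an enzyme was 0.526. At an unadjusted p under 0.05 there were 3 of 41 enzymes (7.32%) and 9.06% of all genes. DESeq2 and the edgeR exact test called 0 enzymes in Gas as well, and 0.936% and 0.798% of the genes they tested. In Sol, the quasi-likelihood test called 0 of 41 against 0.967% of 13342 genes, the lowest adjusted p being 0.0742, and 5 of 41 (12.2%) had an unadjusted p under 0.05 against 15.5% of all genes. Both other tools called 2 enzymes in Sol (4.88%), *Setd7* and *Eed*, close to the 4.12% (DESeq2) and 4.20% (exact test) of all genes that they called.

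The genotypes did not overlap, in the sense that every LSD1-mKO library lay above or below every WT library, for 2 of 41 enzymes in Gas (4.88%) and for 6 of 41 in Sol (14.6%). Over all genes tested these shares were 6.95% in Gas and 10.8% in Sol, so by this count the enzymes lay near the background in both muscles. The median log2 fold change of LSD1-mKO over WT was 0.17 for the enzymes in Gas (0.010 for all genes) and -0.0097 in Sol (-0.011 for all genes). In Gas 28 enzymes (68.3%) were on the higher and 13 on the lower side, where 51.2% of all genes were higher. In Sol 18 (43.9%) were on the higher and 23 on the lower side, where 48.2% of all genes were higher. The sides matched between the muscles for 25 of the 41 (61.0%), as they did for 66.4% of the 12843 genes tested in both.

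The intervals show how large a change could have been missed. In Sol the 95% interval of the log2 fold change lay within -1 and 1 for 38 of the 41 enzymes, and for 76.9% of all genes. In Gas, where libraries spread more widely, it did so for 27 of 41, and for 62.2% of all genes. A 2-fold change of transcript level in either direction thus lay outside the interval for most enzymes in Sol. Smaller shifts of the transcripts could have gone undetected with these libraries, and enzyme protein and activity were not measured.

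**Figure D1:**
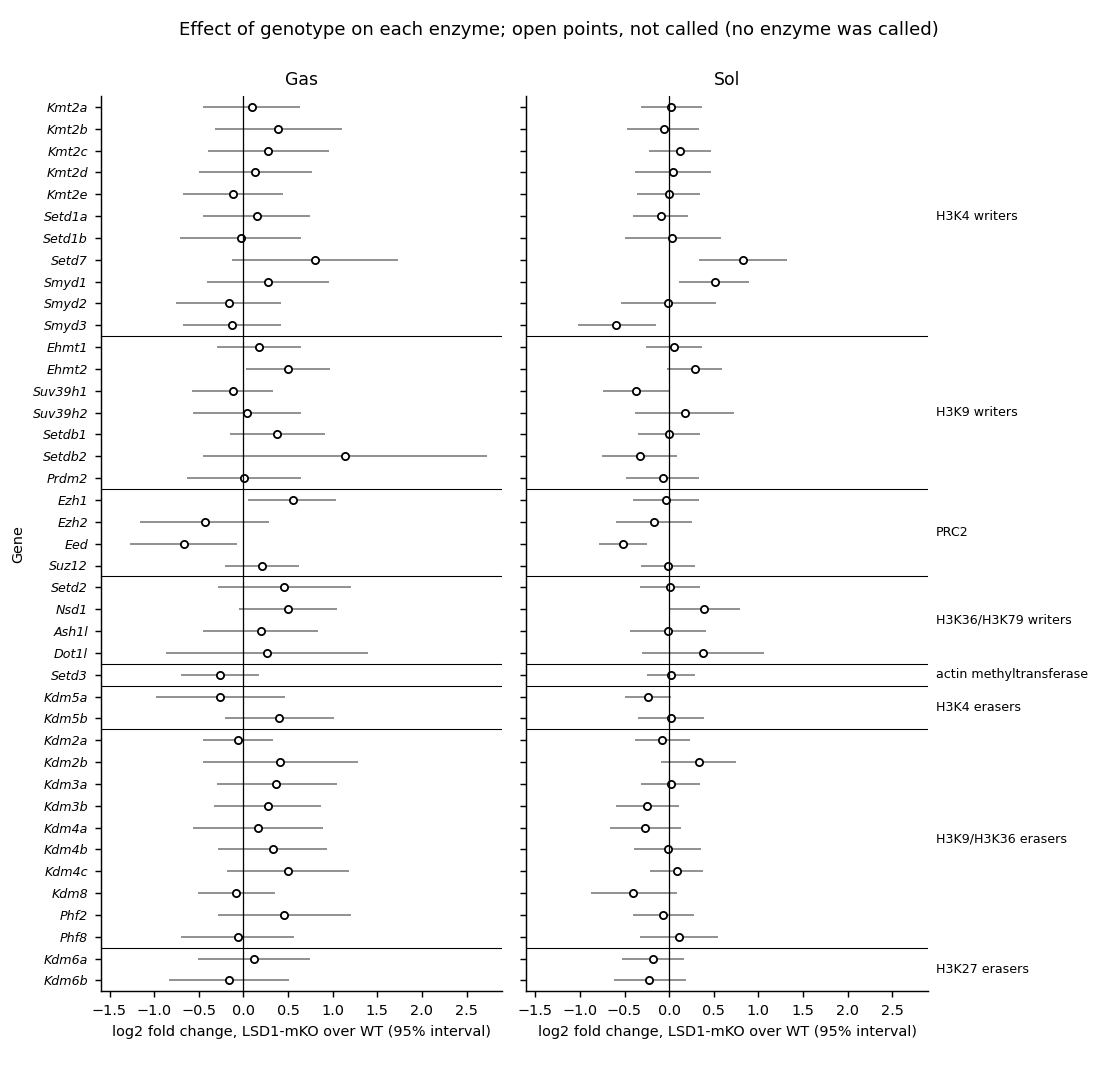
Log2 fold change of LSD1-mKO over WT (x axis) for each of the 41 enzymes (y axis, grouped by role) in Gas (left) and Sol (right). Points are estimates of edgeR's quasi-likelihood fit and lines are 95% intervals, which in Sol leave 0 for *Setd7*, *Smyd1*, *Smyd3*, *Suv39h1* and *Eed*, although no enzyme passed the adjusted threshold.

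*Setd7* and *Eed* were the enzymes nearest to a call, in opposite directions, and *Smyd1* and *Smyd2* were the most abundant. The promoter sequences of these 4 are printed because the comparisons turn on them and because they contrast in base composition. They come from RefSeq (GRCm38.p6), span 250 bases before to 50 bases after an annotated start, and run 5′ to 3′ on the gene's strand, here the minus strand in each case. Capitals mark matches to motifs searched on both strands, a match on the other strand standing as its reverse complement. They were the E-box CAGCTG, bound by myogenic factors, the element GGGCGG, bound by SP and KLF factors, the CCAAT box, and the motif TGTTTAC of forkhead factors. The palindromic glucocorticoid response element was searched as AGAACA followed after any 3 bases by its reverse complement. No matches overlapped in the sequences shown.

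*Setd7* (chr3:51560774-51561073): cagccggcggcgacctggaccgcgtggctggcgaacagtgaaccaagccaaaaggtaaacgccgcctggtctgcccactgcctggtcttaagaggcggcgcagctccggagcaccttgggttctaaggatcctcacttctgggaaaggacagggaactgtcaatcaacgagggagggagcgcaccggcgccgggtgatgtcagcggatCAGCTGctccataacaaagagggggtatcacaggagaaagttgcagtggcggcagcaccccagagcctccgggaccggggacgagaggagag

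*Smyd1* (chr6:71262232-71262531): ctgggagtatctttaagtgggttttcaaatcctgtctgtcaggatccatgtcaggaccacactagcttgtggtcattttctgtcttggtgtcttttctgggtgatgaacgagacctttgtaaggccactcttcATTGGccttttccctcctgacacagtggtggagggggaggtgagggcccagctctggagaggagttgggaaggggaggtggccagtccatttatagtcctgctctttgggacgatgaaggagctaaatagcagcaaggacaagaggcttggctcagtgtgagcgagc

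*Smyd2* (chr1:189922242-189922541): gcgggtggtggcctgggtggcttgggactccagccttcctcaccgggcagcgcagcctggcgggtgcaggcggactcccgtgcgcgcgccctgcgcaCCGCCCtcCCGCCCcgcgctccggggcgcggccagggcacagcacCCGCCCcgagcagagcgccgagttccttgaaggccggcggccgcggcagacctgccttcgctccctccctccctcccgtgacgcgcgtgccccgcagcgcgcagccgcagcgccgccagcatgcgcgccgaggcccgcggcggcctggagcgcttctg

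*Eed* (chr7:89980927-89981226): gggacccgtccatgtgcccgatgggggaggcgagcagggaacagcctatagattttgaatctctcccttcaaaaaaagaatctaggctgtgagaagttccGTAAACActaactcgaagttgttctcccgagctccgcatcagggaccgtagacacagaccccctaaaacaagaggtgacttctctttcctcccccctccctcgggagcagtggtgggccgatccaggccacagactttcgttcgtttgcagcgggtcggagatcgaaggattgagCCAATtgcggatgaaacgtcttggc

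The *Setd7* window held 1 E-box, the *Smyd1* window 1 CCAAT box, the *Smyd2* window 3 GGGCGG elements, and the *Eed* window 1 forkhead motif and 1 CCAAT box. None of the 4 held the glucocorticoid response element, which occurred in 0.00913% of 32851 promoter windows of the same length. The GC content was 52.0% in *Smyd1*, 54.7% in *Eed* and 62.7% in *Setd7*, and *Smyd2* exceeded all of them. *Smyd1*, whose expression is restricted to striated muscle, had 3 CpG dinucleotides in its window, against 17, 21 and 43 in *Eed*, *Setd7* and *Smyd2*. RefSeq windows were matched for 29 of the 41 enzymes (38 windows), and not for *Kmt2b*, *Kmt2e*, *Setd1b*, *Smyd3*, *Prdm2*, *Nsd1*, *Ash1l*, *Kdm5a*, *Kdm2a*, *Kdm3b*, *Kdm4b* and *Kdm6b*. For the matched windows the median ratio of observed to expected CpG was 0.886, against 0.384 over all windows. An E-box was found in 15.8% of the enzyme windows and 16.3% of all windows, CCAAT in 39.5% and 37.4%, the forkhead motif in 7.89% and 3.65%, and GGGCGG in 71.1% and 35.7%. These are matches of letters and not measured binding sites.

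Among the writers of H3K4, *Setd7* had the largest difference between genotypes. SETD7 monomethylates H3K4 and many other proteins and takes part in myogenic differentiation. In Sol the gene (chr3:51515319-51560879) had 136, 66.3 and 108 CPM in the WT libraries and 232, 204, 178, 149.8 and 159 CPM in the LSD1-mKO libraries. Every LSD1-mKO library lay above every WT library, with WT replicate 2 the lowest. This amounted to 0.83 on the log2 scale (SE 0.226, 95% interval 0.33 to 1.32), with an adjusted p of 0.110 by edgeR's quasi-likelihood test. The call depended on the test: the adjusted p was 0.0198 with DESeq2, 0.0252 with the edgeR exact test and 0.0348 when the ribosomal protein level entered as a covariate, a fit that called 2.05% of all genes. Without WT Sol replicate 2, the library of high ribosomal protein level, the log2 fold change was 0.60 (adjusted p 0.211).

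In Gas, *Setd7* had 226, 299 and 182 CPM in WT and 402, 369.6, 820.3, 267 and 199 CPM in LSD1-mKO. The genotypes overlapped, and the LSD1-mKO group spread from below 2 of the WT libraries to replicate 3 far above all others. The log2 estimate of 0.80 had an SE of 0.420, its adjusted p was 0.555 (edgeR quasi-likelihood), and the value was 0.40 without LSD1-mKO Gas replicate 3. The difference of the genotype effect between the muscles was 0.030 on the log2 scale, with a 95% interval from -1.02 to 1.08, so that the estimates were alike in size and a difference of up to about 2-fold in either direction lay within the interval.

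*Smyd1*, the methyltransferase and HSP90 partner needed for myosin assembly in striated muscle, had 578, 368 and 552 CPM in WT Sol and 684, 858, 623, 700.0 and 711 CPM in LSD1-mKO Sol (chr6:71213940-71322233). The 5 LSD1-mKO libraries all lay above the 3 WT libraries. On the log2 scale they were higher by 0.51 (SE 0.181, adjusted p 0.216), and neither DESeq2 nor the exact test called it. Without WT Sol replicate 2, the lowest library and one of high ribosomal protein level, the estimate was 0.34 (adjusted p 0.346). In Gas it had 530.0, 561 and 223 CPM in WT and 612, 666, 429, 473 and 467 CPM in LSD1-mKO, with overlap. There the log2 fold change of 0.27 (adjusted p 0.740) rested on the low WT Gas replicate 3, without which it was -0.034.

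*Smyd3*, a SMYD enzyme expressed at a low level here, pointed the other way in Sol (chr1:178951960-179518041). It had 4.60, 4.42 and 3.88 CPM in WT Sol and 2.71, 3.06, 2.18, 3.07 and 3.46 CPM in LSD1-mKO Sol. All LSD1-mKO libraries lay below all WT libraries, with an estimate of -0.59 on the log2 scale (SE 0.200) and an adjusted p of 0.195 by the quasi-likelihood test. In Gas the values were 6.81, 4.85 and 7.83 CPM in WT and 6.08, 5.30, 4.12, 6.10 and 7.80 CPM in LSD1-mKO. These overlapped, with a log2 fold change of -0.13 (adjusted p 0.854) that changed sign to 0.022 without WT Gas replicate 3. *Smyd2* (chr1:189880492-189922363), of the same family, did not differ between genotypes beyond the spread of the libraries, with log2 fold changes of -0.16 in Gas (95% interval -0.75 to 0.42) and -0.0097 in Sol (-0.54 to 0.52).

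**Figure D2:**
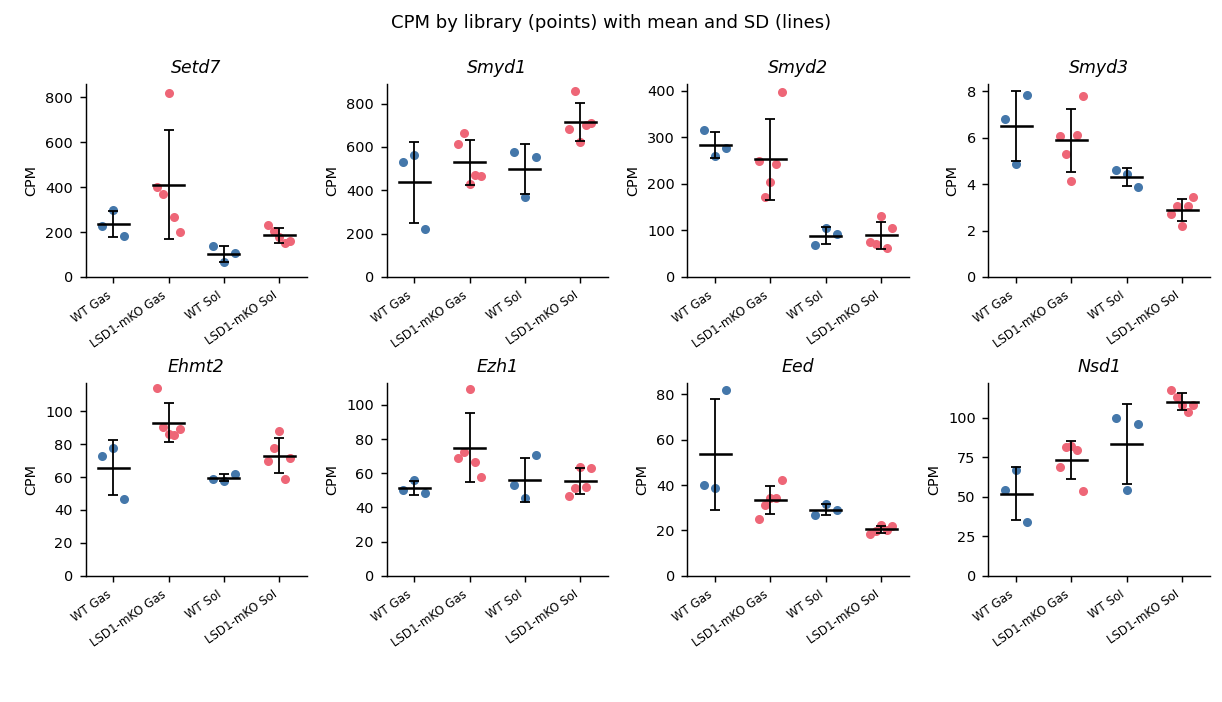
CPM (y axis, linear scale from 0) of 8 enzymes in every library of the 4 groups (x axis), blue for WT and red for LSD1-mKO. Horizontal lines are means and vertical lines SDs (n = 3 in WT, n = 5 in LSD1-mKO); in Sol the groups are apart for *Setd7*, *Smyd1*, *Smyd3*, *Eed* and *Nsd1*, and *Smyd2* is lower in Sol than in Gas in both genotypes.

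The large KMT2 and SETD1 proteins, most of them catalytic subunits of the COMPASS complexes that write H3K4 methylation, did not pass the test. Over these 7 genes the log2 fold change ran from -0.12 (*Kmt2e*) to 0.39 (*Kmt2b*, 95% interval -0.32 to 1.11) in Gas, and from -0.094 (*Setd1a*) to 0.12 (*Kmt2c*) in Sol. *Kmt2a* (chr9:44803355-44881296) averaged 54.2 ± 4.12 CPM in WT Gas and 57.8 ± 17.9 CPM in LSD1-mKO Gas, and 49.7 ± 10.2 and 50.9 ± 6.21 CPM in Sol (SD, n = 3 and 5 in each muscle). *Kmt2d* (chr15:98831669-98871204), which writes enhancer H3K4 monomethylation, averaged 97.5 ± 31.0 and 107 ± 31.8 CPM in Gas and 81.7 ± 25.9 and 84.8 ± 8.40 CPM in Sol. *Setd1a* (chr7:127776670-127800122), a writer of trimethylated H3K4 at promoters, averaged 37.2 ± 8.75 and 41.4 ± 12.8 CPM in Gas and 33.2 ± 4.47 and 31.4 ± 3.80 CPM in Sol. The log2 fold changes of *Kmt2a*, *Kmt2d* and *Setd1a* lay between 0.094 and 0.15 in Gas and between -0.094 and 0.046 in Sol. The adjusted p of the edgeR quasi-likelihood test was at least 0.804 for each, and every sign changed when some single library was left out. Over all 11 H3K4 writers the median log2 fold change was 0.13 in Gas and 0.024 in Sol.

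The 7 writers of H3K9 are linked to gene silencing. *Ehmt2* encodes G9a, which dimethylates H3K9 and restrains myogenic differentiation (chr17:34898469-34914052). In Gas it had 72.8, 77.9 and 46.7 CPM in WT and 114, 90.7, 86.2, 85.9 and 89.3 CPM in LSD1-mKO. The genotypes did not overlap, LSD1-mKO replicate 1 being the highest and WT replicate 3 the lowest. The estimate was 0.50 on the log2 scale (SE 0.212, 95% interval 0.034 to 0.97), its adjusted p 0.541 by edgeR's quasi-likelihood test, and it was 0.32 without WT Gas replicate 3. In Sol *Ehmt2* had 58.7, 57.9 and 61.9 CPM in WT and 69.6, 77.8, 87.8, 58.9 and 71.7 CPM in LSD1-mKO. LSD1-mKO replicate 4 lay among the WT libraries, and the log2 fold change was 0.29 (SE 0.140, adjusted p 0.361).

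*Suv39h1*, a writer of trimethylated H3K9 in heterochromatin (chrX:8061171-8074760), had 8.61, 8.92 and 10.5 CPM in WT Sol and 5.93, 6.65, 7.47, 7.64 and 8.76 CPM in LSD1-mKO Sol. Only LSD1-mKO replicate 5 lay within the WT range, and the estimate of -0.37 (log2 scale, SE 0.167) had an adjusted p of 0.318 by the quasi-likelihood test. In Gas it was -0.12 (adjusted p 0.829), with overlapping groups, and -0.25 without WT Gas replicate 3. The largest value of any enzyme in Gas was that of *Setdb2*, 1.14 on the log2 scale (SE 0.718, adjusted p 0.596), where a single library decided it. LSD1-mKO Gas replicate 3 had 28.8 CPM, while the other LSD1-mKO Gas libraries had from 2.93 to 5.99 CPM and WT Gas from 3.18 to 4.91 CPM. In the same library the 3 neutrophil markers summed to 112 CPM, against 2.53 to 8.49 CPM in the other LSD1-mKO Gas libraries and 1.66 to 41.5 CPM in WT Gas. The 41.5 CPM were those of WT Gas replicate 3, which had the lowest *Setdb2* of WT Gas (3.18 CPM). The part of the neutrophil markers in the *Setdb2* value was not tested. In bulk muscle a change in the number of cells of a type and a change in RNA per cell cannot be told apart.

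PRC2 trimethylates H3K27 and is made of a catalytic subunit, EZH1 or EZH2, with EED and SUZ12. *Eed*, whose product reads the mark and stimulates the enzyme, was the enzyme gene with the smallest p in both muscles (chr7:89954654-89980983). In Sol it had 26.7, 31.7 and 29.0 CPM in WT and 18.6, 19.5, 22.2, 20.2 and 22.1 CPM in LSD1-mKO. All 5 LSD1-mKO libraries lay below all 3 WT libraries, and both groups were tight. Their difference was -0.52 on the log2 scale (SE 0.124, 95% interval -0.79 to -0.25), which gave an adjusted p of 0.0742 by edgeR's quasi-likelihood test. As with *Setd7*, the adjusted p was under the threshold with DESeq2 (0.0117), the edgeR exact test (0.0246) and the ribosomal protein covariate (0.0394), and above it in the other settings. Leaving out 1 Sol library at a time gave adjusted p from 0.0772 to 0.238, with log2 estimates from -0.57 to -0.44.

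In Gas, *Eed* had 40.2, 38.5 and 81.9 CPM in WT and 24.9, 31.2, 34.3, 34.2 and 42.3 CPM in LSD1-mKO. LSD1-mKO replicate 5 overlapped with WT, and WT replicate 3 was far above the rest. The difference of -0.67 on the log2 scale (SE 0.269, adjusted p 0.526 by the quasi-likelihood test) was -0.23 without WT Gas replicate 3. WT replicate 3 and LSD1-mKO replicate 5 were the Gas libraries of high ribosomal protein level and had the highest *Eed* of their groups. In Sol the library of high ribosomal protein level, WT replicate 2, also had the highest *Eed* of its group (31.7 CPM). The part of that level in the *Eed* values was not tested beyond the covariate and the libraries left out.

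The catalytic subunits are alternatives to each other. *Ezh1*, the subunit of post-mitotic tissue (chr11:101191115-101226463), had 50.1, 56.0 and 48.2 CPM in WT Gas and 69.2, 72.2, 109.6, 66.6 and 57.7 CPM in LSD1-mKO Gas. The groups did not overlap, and LSD1-mKO replicate 3 was well above the other 4. LSD1-mKO exceeded WT by 0.55 on the log2 scale (SE 0.222, adjusted p 0.531 by the quasi-likelihood test), and by 0.37 without that library. In Sol it was -0.037 (95% interval -0.40 to 0.33) with overlapping groups, 56.2 ± 12.9 CPM in WT and 55.2 ± 7.67 CPM in LSD1-mKO (SD, n = 3 and 5). *Ezh2*, the subunit of dividing cells (chr6:47530139-47595341), was low throughout, with 5.71, 5.26 and 13.6 CPM in WT Gas and from 4.63 to 7.67 CPM in LSD1-mKO Gas. The estimate was -0.43 on the log2 scale in Gas (adjusted p 0.643), but 0.12 without WT Gas replicate 3. It was -0.17 in Sol, where its adjusted p was 0.734. The summed CPM of 4 proliferation markers was between 1.06 and 6.58 in WT and between 0.842 and 34.8 in LSD1-mKO libraries of Gas. In Sol it lay between 1.12 and 1.33 (WT) and between 2.94 and 15.3 (LSD1-mKO). The mean of *Ezh2* was not higher in LSD1-mKO in either muscle. *Suz12*, the scaffold of the complex, had log2 fold changes of 0.21 in Gas and -0.011 in Sol.

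The 4 writers of H3K36 or H3K79 mark transcribed genes. *Nsd1*, which dimethylates H3K36 (chr13:55209782-55318325), had 100.1, 54.0 and 96.0 CPM in WT Sol and 118, 113, 108, 104 and 108 CPM in LSD1-mKO Sol. The groups did not overlap, but WT replicate 2 lay far below the other 2 WT libraries. The difference of 0.39 on the log2 scale (SE 0.181, adjusted p 0.327 by edgeR's quasi-likelihood test) was 0.17 without it. In Gas *Nsd1* had 54.6, 67.1 and 33.9 CPM in WT and 69.1, 81.6, 82.1, 79.7 and 53.5 CPM in LSD1-mKO. These overlapped through LSD1-mKO replicate 5, and the log2 fold change was 0.50 (SE 0.248, adjusted p 0.555), or 0.28 without WT Gas replicate 3. *Setd2*, *Ash1l* and *Dot1l* had log2 fold changes between 0.20 and 0.46 (Gas) and between -0.013 and 0.38 (Sol), with adjusted p of at least 0.610. *Setd3*, a SET-domain protein that methylates a histidine of actin and not a histone, had -0.26 in Gas and 0.021 in Sol.

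The H3K4 erasers of the KDM5 family act on the same lysine as LSD1. *Kdm5a* (chr6:120364124-120444574) had 54.3, 45.2 and 52.6 CPM in WT Sol and 42.6, 40.4, 41.6, 45.9 and 46.1 CPM in LSD1-mKO Sol. The groups overlapped through WT replicate 2, and the estimate was -0.24 on the log2 scale (SE 0.116, 95% interval -0.49 to 0.018, adjusted p 0.360 by edgeR's quasi-likelihood test). In Gas it had 33.8, 30.8 and 90.0 CPM in WT and 34.9, 38.5, 51.0, 44.1 and 45.8 CPM in LSD1-mKO. The log2 fold change of -0.26 (adjusted p 0.769) became 0.41 without WT Gas replicate 3, the highest library. *Kdm5b* (chr1:134560171-134635285) had 15.7, 16.2 and 11.0 CPM in WT Gas and 14.2, 16.4, 26.8, 24.5 and 13.3 CPM in LSD1-mKO Gas, or 0.40 on the log2 scale (SE 0.276, adjusted p 0.616) and 0.26 without WT Gas replicate 3. In Sol it averaged 13.2 ± 0.409 CPM in WT and 13.5 ± 2.60 CPM in LSD1-mKO (SD, n = 3 and 5), a log2 fold change of 0.019 (95% interval -0.35 to 0.39).

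The remaining erasers did not pass the test either. The 10 genes for H3K9 or H3K36 had a median log2 fold change of 0.30 in Gas and -0.042 in Sol, and their 95% intervals lay within -1 and 1 for 6 of 10 in Gas and 10 of 10 in Sol. In Sol *Kdm2b*, an H3K36 demethylase of a variant Polycomb complex, was the only one of them whose genotypes did not overlap, with from 4.56 to 5.67 CPM in WT and from 5.93 to 8.88 CPM in LSD1-mKO, which is 0.33 on the log2 scale (SE 0.192, adjusted p 0.453 by the quasi-likelihood test). *Kdm8* (chr7:125444676-125462269), a JmjC protein, had the lowest value of them in Sol, -0.40 (SE 0.221, adjusted p 0.426), with 6.10 ± 1.22 CPM in WT and 4.67 ± 0.954 CPM in LSD1-mKO (SD, n = 3 and 5). The H3K27 erasers *Kdm6a* and *Kdm6b* had 0.12 and -0.16 in Gas and -0.18 and -0.22 in Sol.

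**Figure D3:**
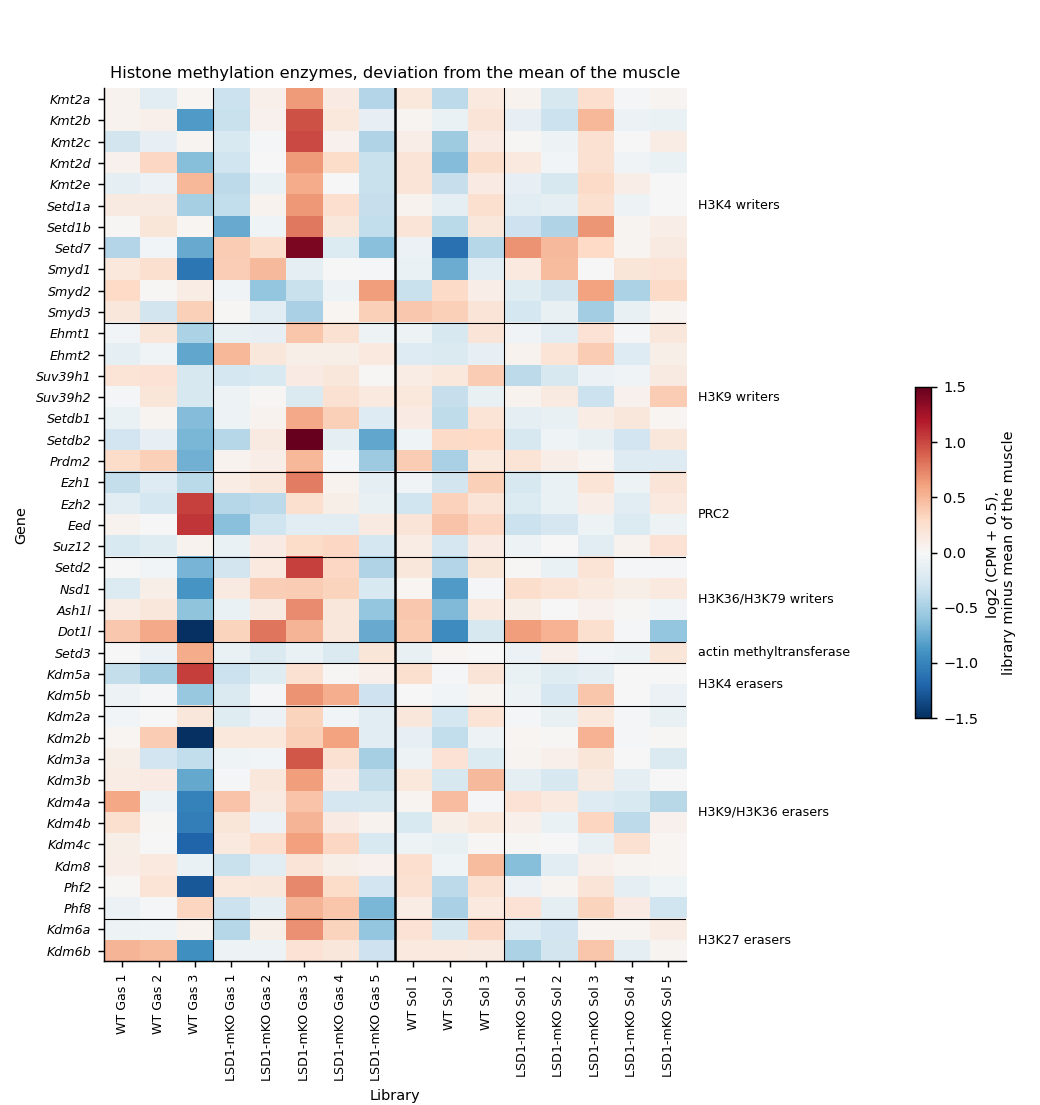
Deviation of each of the 41 enzymes (y axis, grouped by role) from its mean over the 8 libraries of the muscle, in log2 (CPM + 0.5), for each library (x axis). Colors beyond -1.5 or 1.5 are drawn at the end of the scale; WT Gas replicate 3 is mostly blue and LSD1-mKO Gas replicate 3 mostly red, while *Eed*, *Ezh2* and *Kdm5a* are red in WT Gas replicate 3.

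Within many libraries most of the enzymes lay on the same side of their means over the muscle. Between 31 and 35 of the 41 lay above in LSD1-mKO Gas replicates 3 and 4, WT Sol replicate 3 and LSD1-mKO Sol replicate 3. Only 10 to 14 lay above in WT Gas replicate 3, LSD1-mKO Gas replicates 1 and 5, WT Sol replicate 2 and LSD1-mKO Sol replicate 2. The median deviation was largest in LSD1-mKO Gas replicate 3, at 0.50 on the log2 scale, and in WT Gas replicate 3, at -0.50. LSD1-mKO Gas replicate 5 and WT Sol replicate 2 had medians of -0.24 and -0.25, and the other 12 libraries lay between -0.10 and 0.18. Over all genes tested the median of a library lay between -0.015 and 0.021. The enzymes have long transcripts, with a median exon length of 8116 bases against 4498 over the genes tested in Gas. The 2237 Gas genes at least as long as that median deviated by -0.33 in WT Gas replicate 3 and by 0.23 in LSD1-mKO Gas replicate 3. How far transcript length or the ribosomal protein level account for the deviation of the enzymes was not tested. The median log2 fold change of the enzymes in Gas was -0.011, in place of 0.17, when that level entered as a covariate, and with the 3 libraries of high level left out it was 0.14 in Gas and -0.13 in Sol. No enzyme was called for genotype with those libraries left out.

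**Figure D4:**
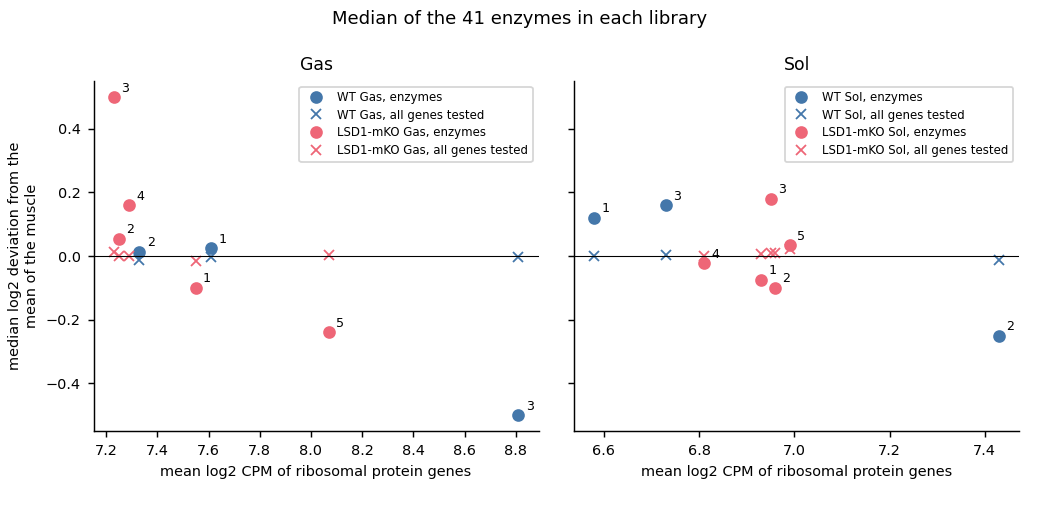
Median log2 deviation of the 41 enzymes from the mean of the muscle (y axis, circles with the replicate number) against the mean log2 CPM of the ribosomal protein genes (x axis) for the Gas (left) and Sol (right) libraries. Crosses give the median over all genes tested, which stays near 0, while the enzymes reach -0.50 in WT Gas replicate 3 at a ribosomal level of 8.81.

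Whether LSD1 loss acted differently in the 2 muscles was tested as an interaction term fitted to the 16 libraries. Of the 41 enzymes edgeR's quasi-likelihood test called 0, as it did 0% of the 13749 genes tested, and the lowest adjusted p of an enzyme was 0.987. At an unadjusted p under 0.05 there were 0 enzymes and 4.88% of all genes, and DESeq2 called 0 enzymes and 0.129% of genes. The smallest unadjusted p belonged to *Ezh1*, whose effect in Sol was lower than in Gas by 0.57 on the log2 scale (SE 0.282, 95% interval -1.16 to 0.024, adjusted p 0.987). The enzymes' median of the difference, Sol minus Gas, was -0.15 on the log2 scale, beside 0.0093 over all genes.

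Several enzymes differed between the libraries of the muscles. In the titles the Gas and Sol libraries carry different sets of names. Muscle and library set therefore cannot be told apart in any comparison of Sol against Gas given here. In WT mice 2 of 41 enzymes (4.88%) passed the quasi-likelihood test for Sol against Gas, both lower in Sol, against 17.0% of the 13749 genes tested. In LSD1-mKO mice, with more libraries, 7 of 41 (17.1%) passed, 6 lower and 1 higher in Sol, against 24.5% of genes.

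*Smyd2* had the largest difference. It had 315, 259 and 277 CPM in WT Gas and 68.3, 105 and 92.6 CPM in WT Sol, and in LSD1-mKO 248, 172, 203, 243 and 397 CPM in Gas and 75.9, 71.3, 131, 62.0 and 105 CPM in Sol. No Sol library reached any Gas library in either genotype. Sol differed from Gas by -1.68 on the log2 scale in WT (SE 0.308, adjusted p 0.00129 by edgeR's quasi-likelihood test) and -1.51 in LSD1-mKO (SE 0.237, adjusted p 0.000203). The call held in all alternatives and without any single library. *Eed* was also lower in Sol, at -0.87 on the log2 scale in WT (SE 0.246, adjusted p 0.0223) and -0.70 in LSD1-mKO (SE 0.191, adjusted p 0.0128). The WT call rested in part on WT Gas replicate 3, without which the value was -0.46 (adjusted p 0.115), and it was lost also without WT Sol replicate 1 (-0.80, adjusted p 0.0872) or replicate 3 (-0.85, adjusted p 0.0699).

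*Setd7* and *Smyd3* were called in LSD1-mKO and not in WT. For *Setd7* the log2 ratio of Sol to Gas was -1.19 in WT (SE 0.400, quasi-likelihood adjusted p 0.0505, and between 0.0141 and 0.0492 in 6 alternatives that called it) and -1.16 in LSD1-mKO (SE 0.309, adjusted p 0.0116). *Smyd3* had -0.58 in WT (SE 0.248, adjusted p 0.115) and -1.03 in LSD1-mKO (SE 0.193, adjusted p 0.000929). The difference between the genotypes is the interaction given above, and it had an adjusted p of 0.987 for *Smyd3* and of 1.000 for *Setd7*. *Smyd1*, in contrast to the rest of its family, had higher estimates in Sol, 0.19 in WT (adjusted p 0.693) and 0.43 in LSD1-mKO (adjusted p 0.167), which did not pass.

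The other calls in LSD1-mKO were weaker. *Kdm8* was lower in Sol, with 5.57, 6.40, 8.31, 7.63 and 7.52 CPM in Gas and 3.09, 4.47, 5.38, 5.23 and 5.19 CPM in Sol, no overlap, and a log2 ratio of -0.60 (SE 0.179, adjusted p 0.0216 by edgeR's quasi-likelihood test). *Nsd1* was higher in Sol by 0.59 on the log2 scale (SE 0.192, adjusted p 0.0333 by the same test). It had from 53.5 to 82.1 CPM in Gas and from 104 to 118 CPM in Sol. With the replicate number as a block its adjusted p was 0.0689, but whether the numbers pair the muscles is not known. The call of *Nsd1* was also lost in 9 of the 16 fits that left out 1 library. *Kmt2b*, another COMPASS subunit, was lower in Sol, at -0.72 on the log2 scale (SE 0.239, adjusted p 0.0366), and at -0.47 without LSD1-mKO Gas replicate 3 (adjusted p 0.108), 1 of 6 single libraries whose removal ended the call. *Dot1l*, the H3K79 methyltransferase, had a ratio of 1.08 on that scale (SE 0.396, adjusted p 0.0551) and was called with the block (1.11, adjusted p 0.0355). With the 3 libraries of high ribosomal protein level left out, 17 enzymes (41.5%) were called in LSD1-mKO and 5 (12.2%) in WT, against 31.3% and 21.7% of all genes.

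**Figure D5:**
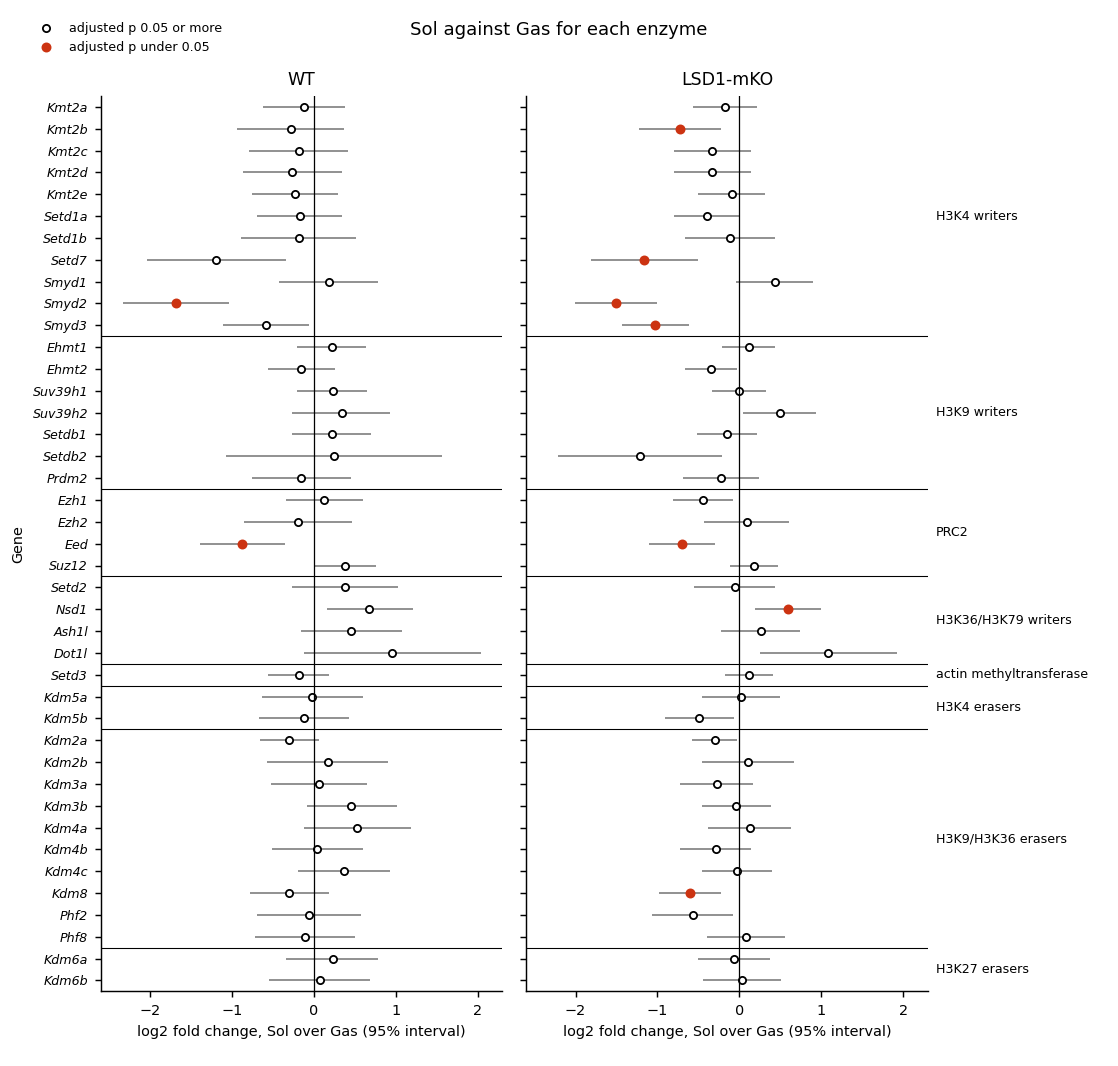
Log2 fold change of Sol over Gas (x axis) for each of the 41 enzymes (y axis, grouped by role) in WT (left) and LSD1-mKO (right), with 95% intervals. Filled red points passed an adjusted p under 0.05, 2 in WT and 7 in LSD1-mKO, and *Smyd2* lies furthest to the left in both.

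Levels between genes were compared per length, as RPKM (CPM divided by exon length in kilobases, with lengths from the GENCODE annotation of GRCm38). *Smyd1* and *Smyd2* had the highest levels in every group. In WT Gas *Smyd2* had 104 and *Smyd1* 96.4 RPKM, followed by *Setd3* (23.2) and *Setd7* (21.8), while the other 37 enzymes had from 0.348 (*Suv39h2*) to 14.0 RPKM (*Eed*), with a median of 3.64 over all 41. In WT Sol *Smyd1* led with 109.8 RPKM, followed by *Smyd2* (32.6) and *Setd3* (20.4), and the other 38 had 11.1 RPKM or less. *Smyd3*, near the low end, had 0.707 RPKM in WT Gas and 0.468 in WT Sol. LSD1-mKO kept *Smyd1* and *Smyd2* in the top 2 places in both muscles (116 and 93.0 RPKM in Gas, 157 and 32.8 in Sol). *Ezh1* exceeded *Ezh2* in every group, by 6.91 against 1.23 RPKM in WT Gas and 7.55 against 1.06 RPKM in WT Sol.

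A further 49 enzymes and cofactors of histone or arginine methylation, listed apart from the 41, were read beside them. Of the 47 that passed the filter in each muscle, the quasi-likelihood test called 0 for genotype in Gas and 0 in Sol, with 6 and 3 at an unadjusted p under 0.05, a level that 9.06% and 15.5% of all genes reached. The edgeR exact test called 0 in both muscles, and DESeq2 called 0 in Gas and 1 in Sol, *Prmt2*, an arginine methyltransferase (log2 fold change 0.87, SE 0.257, quasi-likelihood adjusted p 0.135). The median log2 fold change of these genes was 0.14 in Gas and -0.0035 in Sol. In Gas the smallest p belonged to *Setmar* (-0.79, quasi-likelihood adjusted p 0.365) and *Setd8* (-0.78, adjusted p 0.387), both lower in LSD1-mKO. *Phf19*, at 2.48 CPM or less, was higher in Gas (1.10, adjusted p 0.434) and Sol (0.77, adjusted p 0.231). *Kdm1b*, which encodes LSD2, the closest relative of LSD1, averaged 11.2 ± 2.06 CPM in WT Gas and 10.5 ± 1.11 CPM in LSD1-mKO Gas, and 17.8 ± 3.82 and 17.4 ± 1.89 CPM in Sol (SD, n = 3 and 5). For genotype its estimates were -0.10 (Gas, adjusted p 0.853) and -0.043 (Sol, adjusted p 0.935) on the log2 scale. Between the muscles, 7 of the 47 were higher and 2 lower in Sol in WT, and 4 and 4 in LSD1-mKO, where 17.0% and 24.5% of all genes were called. *Kdm1b* was among the higher ones, by 0.66 in WT (adjusted p 0.0265) and 0.73 in LSD1-mKO (adjusted p 0.00179).

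The cell type markers were read beside these values. Of 39 markers in 10 lists, 35 passed the filter in Gas and 34 in Sol, and the quasi-likelihood test called 0 for genotype in each muscle. At an unadjusted p under 0.05 there were 4 of 35 in Gas and 9 of 34 in Sol, against 9.06% and 15.5% of all genes. The share of the markers in Sol was thus above that of all genes. In Gas both other tools called 0. In Sol each called 3, where DESeq2 called 4.12% and the exact test 4.20% of all genes. Both called the macrophage marker *Cd68* and the proliferation marker *Mki67*. DESeq2 also called the proliferation marker *Top2a*, and the exact test the fast myosin *Myh4*. The summed level of 4 macrophage markers ranged from 36.1 to 41.4 CPM in WT Sol and from 34.0 to 86.7 CPM in LSD1-mKO Sol, and from 51.3 to 72.6 CPM over the Gas libraries. The 4 fibroblast markers summed to between 1091 and 1655 CPM in WT Gas and between 766 and 904 CPM in LSD1-mKO Gas. These sums did not overlap, as 6.95% of all genes did not in Gas, but each of the 4 markers overlapped on its own. *Dcn* made up most of the sum (652 to 1489.9 CPM in WT Gas and 509.9 to 678 CPM in LSD1-mKO Gas). In Sol the sums overlapped (757 to 1127 CPM in WT and 479 to 1567 CPM in LSD1-mKO). The fast myosins did not move together in Sol. *Myh1* lay between 6112 and 8499 CPM in WT Sol and between 563 and 5235 CPM in LSD1-mKO Sol. *Myh4* went the other way, with overlap, from at most 143 CPM in WT Sol to between 103 and 1144 CPM in LSD1-mKO Sol. Of the red cell markers, *Alas2* lay between 8.66 and 28.1 CPM over all libraries, while *Hba-a1* and *Hbb-bs*, which have close gene copies, were listed at 0 in each. The 8 markers of muscle fibers summed to between 64679 and 165049.8 CPM over all libraries, and in Gas to between 132313 and 165049.8 CPM in WT and between 97302 and 135965 CPM in LSD1-mKO. The part of these markers in the values of *Setd7*, *Eed* and the other enzymes was not tested.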

How the data were processed

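Poly(A) RNA of Gas and Sol muscles of WT and LSD1-mKO mice was sequenced with single-end reads, 16 libraries in all. Per the labels the genome was mm10 and the aligner STAR, both named in the submitters' processing notes. The authors deposited read counts per gene without normalization, made with featureCounts 1.5.2 per the file headers. Per the file headers no strand option was set, and reads over several places or genes were left out, which leaves antisense or overlapping genes and close copies uncertain. The authors' tables of comparisons (log2 fold change, mean log2 CPM, p-value and adjusted p-value) were not used. Of the count columns 0 belonged to other samples, and no 2 libraries were identical.

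The software was R 4.3.3 with edgeR 4.0.16 (and limma 3.58.1). Genes were kept by filterByExpr (minimum count 10), libraries were scaled by TMM, and quasi-likelihood F-tests (two-sided) were fitted over all genes, for genotype within each muscle and for the interaction and Sol against Gas over 4 groups. A call required p under 0.05 after Benjamini-Hochberg adjustment over all genes tested. Samples were grouped by the labels, and n counts libraries. Alternatives were RLE scaling, no filter, the edgeR exact test, DESeq2 1.42.0, a single fit to all 16 libraries, a covariate (mean log2 CPM of ribosomal protein genes), a replicate block and each library left out. Leaving out the 3 libraries of high ribosomal protein level was chosen after seeing the data. CPM were scaled by TMM over all 16 libraries, and a pseudocount of 0.5 CPM was used on the log2 scale of the plots. The libraries held 10130415 to 24576377 reads in genes, so that 3 reads correspond to between 0.1221 and 0.2961 CPM. Reads carry no molecular identifiers, so such limits cover counting error only. Exon lengths came from GENCODE (GRCm38) and may differ from the annotation the authors counted on.

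The members and lists were chosen with earlier results of these data known. More detail is given for 16 enzymes, as values by library or as group means, ranges or fold changes alone. They were chosen as those called for genotype or interaction and the 5 with the smallest p for genotype in each muscle. Also chosen were the 5 with the smallest adjusted p among those called between muscles in each genotype. *Smyd1*, *Smyd3*, *Setd7*, *Ezh1*, *Ezh2*, *Kdm5a*, *Kdm5b*, *Kmt2a*, *Kmt2d* and *Setd1a* were included whatever their values. The remaining enzymes appear as counts or ranges, at the end of a range, or where an alternative or 1 library changes them.

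Same-numbered LSD1-mKO libraries of Gas and Sol deviated together (correlations 0.212 to 0.359 for the 5 numbers). The titles do not say that they share a mouse. No correlations of libraries with unlike numbers are given to compare, so whether the numbers pair the muscles is not known. For other same-numbered libraries the correlations ran from -0.515 to 0.329, the highest being within the range of the LSD1-mKO ones.

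On simulated counts with 200 genes changed by 2 on the log2 scale, the quasi-likelihood test recovered 175 in Gas (13040 genes, 9 false calls), 186 in Sol (13342 genes, 12 false calls), and 151 for the interaction (13749 genes, 5 false calls). It recovered 174 for Sol against Gas in WT (10 false calls) and 189 in LSD1-mKO (4 false calls).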

Additional observations from a re-analysis of the deposited data

Results flagged for a closer look

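In 9 of 82 groups of 5 LSD1-mKO libraries (41 enzymes in each muscle), 1 library lay far from the other 4, its gap to the nearest one divided by the range of the group exceeding the Dixon critical value of 0.71. Chance gives about 1 in 20 groups, or 4.1 here, if values are normally distributed and groups are independent. The values were CPM on the linear scale, and in every flagged group the outlying library was the highest. Enzymes of a library also shifted together, so the 9 cannot be read as an excess over chance. Of the 9, 7 were in Gas, and 5 of these were LSD1-mKO Gas replicate 3. In that library *Setdb2* had 28.8 CPM against 2.93 to 5.99 CPM (gap 0.882 of the range), *Kdm2a* 85.2 against 59.4 to 65.4 CPM (0.766), *Kmt2c* 146 against 53.3 to 76.8 CPM (0.747), *Ezh1* 109.6 against 57.7 to 72.2 CPM (0.721) and *Kmt2b* 77.6 against 31.4 to 44.6 CPM (0.713). *Ehmt2* had 114 CPM in LSD1-mKO Gas replicate 1 against 85.9 to 90.7 CPM (0.831), and *Setd3* 139.6 CPM in LSD1-mKO Gas replicate 5 against 106 to 115 CPM (0.714). In LSD1-mKO Sol replicate 3, *Kdm2b* had 8.88 CPM against 5.93 to 6.17 CPM (0.917) and *Kmt2b* 40.0 against 22.3 to 26.4 CPM (0.769).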

How the results depend on the processing

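No enzyme was called for genotype in Gas or for the interaction under any alternative run. In Sol, 2 enzymes were called by DESeq2, by the exact test and with the ribosomal protein covariate, namely *Setd7* (log2 fold change 0.83, 0.83 and 0.89) and *Eed* (-0.51, -0.52 and -0.51), and 0 in the other settings. Over all genes, the 4 calls in Gas became 10 without a filter, 123 with DESeq2, 104 with the exact test, 62 with all 16 libraries in one fit and 1 to 7 with single libraries left out. The 129 calls in Sol became 336 without a filter, 583 with DESeq2, 560 with the exact test, 274 with the covariate, 23 without the 3 libraries of high ribosomal protein level and 11 to 228 with single libraries left out. For the interaction there were 20 with DESeq2 and 0 to 1 with single libraries left out.

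For Sol against Gas in WT, 4 enzymes were called by DESeq2 (2954 genes), 5 without those 3 libraries (3010 genes) and 1 to 3 with single libraries left out (1132 to 2839 genes). In LSD1-mKO 17 were called without those 3 libraries (4342 genes) and 5 to 11 with single ones left out (2618 to 4409 genes). *Eed* in WT ranged from -1.04 to -0.46 and *Nsd1* in LSD1-mKO from 0.50 to 0.63 with single libraries left out, and *Nsd1* lost its call without a filter (0.57).

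With the replicate number as a block, 412 genes were called in Sol and 1 for the interaction, and *Smyd2* in Sol changed sign (0.022). In LSD1-mKO, where same-numbered libraries of the muscles correlated, *Nsd1* lost (0.61) and *Dot1l* gained its call, and the block changed no other call of an enzyme there. The titles do not say for any comparison that same-numbered libraries share more than a number.

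Small log2 fold changes of genotype changed sign. In Gas this held with the covariate for *Kmt2a* (-0.034), *Kmt2d* (-0.16), *Setd1a* (-0.11), *Smyd3* (0.068) and *Kdm5a* (0.26), and without the 3 libraries for *Ezh2* (0.13) and *Kdm5a* (0.40). In Sol it held without them for *Kmt2a* (-0.13), *Kmt2d* (-0.19) and *Smyd2* (0.14), and for *Smyd2* without a filter (0.012), with the covariate (0.0015) and in one fit (0.0062). With single libraries left out the values ranged in Gas from -0.088 to 0.37 for *Kmt2d*, from -0.023 to 0.28 for *Setd1a*, from -0.034 to 0.51 for *Smyd1*, from -0.28 to 0.022 for *Smyd3*, from -0.65 to 0.12 for *Ezh2*, from -0.49 to 0.41 for *Kdm5a*, from -0.087 to 0.20 for *Kmt2a*, and in Sol from -0.13 to 0.12 for *Kmt2a*, from -0.19 to 0.22 for *Kmt2d*, from -0.19 to 0.14 for *Smyd2*, from -0.18 to 0.019 for *Setd1a*, from -0.16 to 0.17 for *Ezh1*, from -0.10 to 0.082 for *Kdm5b*. The causes of these shifts were not tested.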
